A study of Sus scrofa with 64 samples.

Results

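The olfactory bulb was compared with the hypothalamus of the same 4 pigs, on 8 of the 64 arrays of a survey of 16 tissues. The arrays were those titled olfactory bulb (4) and those titled hypothalamus (4), paired by animal, and every probe that measures a pig gene was tested, with 6592 genes named on the array. The survey asked how transcript levels are arranged over tissues, breeds and sexes, and took 1 array for each tissue of each animal. The animals were a male and a female of each of 2 breeds, reared together on the same feed and without any treatment, so that sex and breed are carried by single animals. Large White is a lean commercial breed, and its male weighed 38.8 kg and its female 36.2 kg when slaughtered at 87 days. Iberian is a fat local breed, and its female weighed 32.8 kg and its male 25.4 kg at 89 days. The olfactory bulb samples were whole bulbs from both sides. Hypothalamus was sampled without the optic chiasm and down to the tuberal and mamillary parts.

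The olfactory bulb is the first relay of smell in the brain. Sensory axons from the nose end on its mitral and tufted cells, which are glutamatergic, and these are surrounded by a far larger number of GABAergic granule and periglomerular interneurons, some of which are still being replaced after birth by neuroblasts that migrate in from the wall of the lateral ventricle. The hypothalamus lies at the base of the forebrain and holds small nuclei of neurons that secrete peptides, which control the pituitary, feeding, water balance, sleep and reproduction. In rodents the bulb develops from the telencephalon, and most of its interneurons depend on homeobox genes of the DLX family. In samples of whole tissue such as these, fewer cells of a type and less RNA per cell cannot be told apart.

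Levels are log2 signals after the robust multi-array average (RMA), so that a difference of 1 is a doubling, and each difference is olfactory bulb minus hypothalamus within an animal, averaged over the 4 animals and given with its standard error (SE). A probe was called when its p in limma, adjusted over all 23935 probes that are no controls, was under 0.05. Values of single arrays are given in the order Large White male, Large White female, Iberian female, Iberian male. The 8 arrays had medians between 5.46 and 5.52. The distance between arrays, 1 minus the squared correlation over probes, was 0.0428 to 0.0888 between the tissues of an animal, against 0.0175 to 0.0374 within olfactory bulb and 0.0235 to 0.0524 within hypothalamus, and the closest pair of tissues was that of the Iberian female. The sexes read from a Y-linked probe matched the labels on 8 arrays.

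In the bulb 1695 probes were higher (7.08% of those tested) and 2163 were lower (9.04%), and 7197 probes had an unadjusted p under 0.05. Of the calls, 544 probes were higher and 424 lower by at least 1 log2 unit, and at 2 units or more 122 were higher and 41 lower. The same direction was seen in all 4 animals for 3848 of the 3858 called probes. With 1 probe per gene, the brightest, 423 named genes were higher in olfactory bulb (6.42%) and 928 were lower (14.1%), with a median difference of -0.06 over all named genes. At 1 unit or more 131 named genes were higher and 169 lower, so that probes and named genes leaned to different sides. Among the higher probes 1136 carry no usable gene name, as do 967 of the lower ones. Of the 423 genes higher in olfactory bulb, 123 (29.1%) had their highest mean there among the 16 tissues, against 3.5% of all named genes. Of the 928 lower genes, 184 (19.8%) had their highest mean in hypothalamus, against 5.89% of all named genes. These ranks use the same 8 arrays and are a description.

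**Figure D1:**
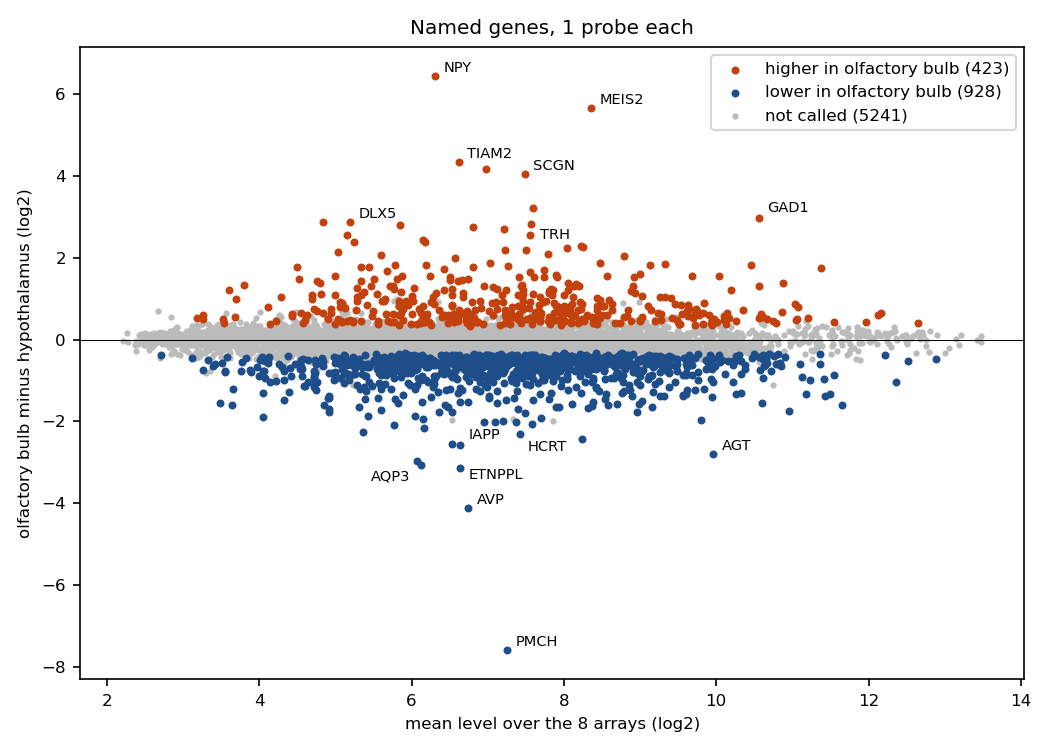
Difference between olfactory bulb and hypothalamus (vertical axis, log2) against the mean level over the 8 arrays (horizontal axis, log2) for 6592 named genes, with 1 point for each gene. The 423 genes called higher in olfactory bulb are orange and the 928 called lower are blue. NPY (6.45) and PMCH (-7.60) lie farthest from 0.

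DLX5, a homeobox factor of bulb and other GABAergic interneurons, had levels of 6.69, 6.94, 6.01 and 6.86 in olfactory bulb, against 3.83, 3.82, 3.59 and 3.77 in hypothalamus. Its difference was 2.88 (SE 0.14, adjusted p = 1.3e-04), with no overlap between the tissues. PMCH encodes the precursor of melanin-concentrating hormone, which is made by neurons of the lateral hypothalamus and promotes feeding. It lay at 3.41, 3.27, 3.51 and 3.60 in olfactory bulb, against 10.72, 10.43, 10.21 and 12.82 in hypothalamus, a difference of -7.60 (SE 0.37, adjusted p = 1.3e-04) or 194-fold, and every bulb was below every hypothalamus. Both genes thus had the direction that the tissue labels imply. TRH, the precursor of thyrotropin-releasing hormone, is known best from the paraventricular nucleus of the hypothalamus and had been taken as a marker of it here, but it went the other way. Its levels were 9.98, 9.14, 7.60 and 8.59 in olfactory bulb, against 5.36, 6.11, 7.51 and 6.12 in hypothalamus, and the difference was 2.55 (SE 0.62, adjusted p = 0.033). The lowest bulb and the highest hypothalamus, both of the Iberian female, were almost level. TRH was called in no fit that left out an animal other than the Iberian female, so that its call depends on single animals (adjusted p of 0.085 to 0.11 without each of the others).

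The gene highest in the bulb relative to the hypothalamus was NPY, the precursor of neuropeptide Y, a transmitter of interneurons and, in rodents, of the ensheathing glia of olfactory axons. It reached 9.90, 9.10, 9.64 and 9.50 in olfactory bulb, against 2.96, 3.74, 2.93 and 2.72 in hypothalamus, a difference of 6.45 (SE 0.25, adjusted p = 1.1e-04) or 87.2-fold. NPY is also made by neurons of the arcuate nucleus, and the second probe of this gene, which was dim in both tissues, differed by only 0.62. MEIS2, a homeobox factor of bulb granule and periglomerular cells, was the next, at 11.55, 11.39, 10.65 and 11.14 in olfactory bulb, against 5.31, 5.74, 6.17 and 4.92 in hypothalamus. The difference was 5.65 (SE 0.28, adjusted p = 1.3e-04), and its second probe gave 4.87. TIAM2, an exchange factor that activates the small GTPase RAC in growing neurites, differed by 4.34 (SE 0.13, adjusted p = 5.7e-05), which was the smallest adjusted p among the genes named here. SCGN encodes secretagogin, a calcium-binding protein of bulb interneurons, and had 9.79, 9.67, 9.18 and 9.39 in olfactory bulb, against 5.36, 5.90, 5.52 and 5.04 in hypothalamus (difference 4.05, SE 0.16, adjusted p = 1.1e-04). In each of these genes the bulbs of the 4 animals lay close together and far above all hypothalami.

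The remaining leaders on the side of the bulb were of several kinds. C3H2orf40, the pig counterpart of the human gene for the secreted peptide augurin, differed by 4.18, and F5, coagulation factor V, by 3.21. CDH1, which encodes E-cadherin, lay at 9.42, 8.67, 8.36 and 9.46 in olfactory bulb, against 5.59, 6.11, 6.35 and 6.52 in hypothalamus (2.83, adjusted p = 9.3e-04). In the mouse E-cadherin is found on olfactory axons and on migrating cells of the bulb. BCL11A, a zinc finger factor of telencephalic neurons, differed by 2.75, LAMP5, a membrane protein of GABAergic neurons, by 2.71, and HS3ST3A1, a sulfotransferase that modifies heparan sulfate, by 2.55. EGR4 and NR4A3, both activity-dependent transcription factors, differed by 2.88 and 2.81. The hypothalami of BCL11A, between 5.09 and 5.70, stayed below its bulbs, between 7.80 and 8.59.

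**Figure D2:**
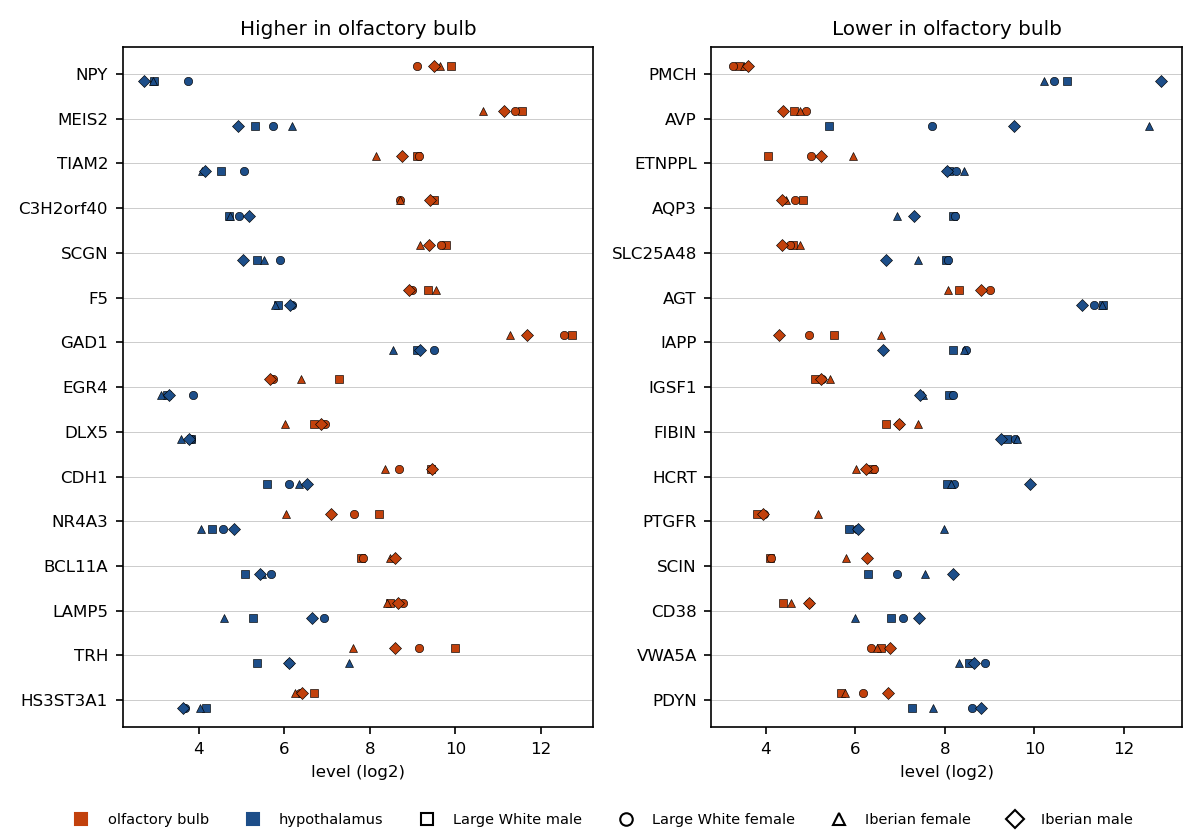
Levels (horizontal axes, log2) of the 15 named genes with the largest positive and the 15 with the largest negative difference among those called with the same direction in 4 animals, 1 row each, olfactory bulb in orange above hypothalamus in blue, with a marker shape for each animal. Bulbs and hypothalami are apart in every row, by little for TRH, IAPP and SCIN, and AVP is spread over hypothalami between 5.41 and 12.56.

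Transcription factors of bulb interneurons were represented by 5 named genes, of which 3 were higher in olfactory bulb and 0 lower, with a median difference of 2.05. The counts of this and each later list stand beside 6.42% of all named genes called higher and 14.1% called lower. Beside MEIS2 and DLX5 the third was TSHZ1, a zinc finger factor that in the mouse is needed by granule cells, with 10.14, 10.10, 9.02 and 10.02 in olfactory bulb, against 7.72, 7.53, 8.0 and 7.81 in hypothalamus. Its difference was 2.05 (SE 0.25, adjusted p = 0.0025). The nuclear receptors NR2F1 (-0.21) and NR2F2 (0.19), which both regions use in development, were not called and overlapped. Of 4 factors typical of the telencephalon BCL11A alone was called, whereas NEUROD1 (0.10), TSHZ2 (0.14) and ID2 (0.19) were not. NEUROD1 and ID2 were dim in both tissues, at 3.91 or less on all 8 arrays, so that their probes say little.

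Many factors of these lists have a probe that the platform annotation leaves without a gene, but that the tables of the study name because it was extreme in a tissue or group of tissues on these arrays. Over all lists 118 further genes could be read in this way, of which 30 had a positive and 15 a negative difference without overlap of the tissues, while in 73 the tissues overlapped. The share without overlap over all probes is not given, so that a lean of these counts to a side cannot be judged. Among called probes, which are another set, 1441 of 1695 higher and 1690 of 2163 lower ones had no overlap. Since the 118 genes were named for their levels, their values are a description, with no test and no part in the counts above. TBR1, a T-box factor of mitral and cortical projection neurons, had 7.08, 6.76, 8.85 and 8.28 in olfactory bulb, against 2.59, 2.56, 3.85 and 2.55 in hypothalamus, and it was highest among hypothalami in the Iberian female. The homeobox genes DLX2 (3.97) and DLX6 (2.73), the ETS factor ETV1 (2.37) and the zinc finger factor SP8 (1.75), all of bulb interneurons or their precursors, had positive differences with no overlap. DLX2 for example lay between 7.79 and 8.65 in olfactory bulb, against 3.76 to 4.60 in hypothalamus. NR2E1 (0.02), EMX2 (-0.03) and TBX21 (0.11), of the same lists, overlapped.

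Genes of newborn and migrating neurons were read with few named probes. NREP, a protein of regenerating neurons, was higher by 1.37 (SE 0.12, adjusted p = 6.1e-04), and the adhesion molecule NCAM1, whose polysialylated form covers migrating neuroblasts, by 0.58 (SE 0.11, adjusted p = 0.012), out of 5 genes of which 0 were lower. Through the names of the study, DCX, the microtubule protein doublecortin of migrating neurons, had 5.58, 5.96, 5.64 and 6.18 in olfactory bulb, against 3.51, 3.65, 3.47 and 3.0 in hypothalamus. SOX11, a factor of immature neurons, differed by 2.85, and ROBO2, a receptor for the repellent SLIT proteins that guide neuroblasts to the bulb, by 3.47. CRMP1, a phosphoprotein of growing axons, differed by 1.02. ELAVL2, an RNA-binding protein of neurons, had a difference of -1.10 with no overlap, and ERBB4, a neuregulin receptor, 0.20 with overlap. Of 16 genes of the cell cycle only TYMS, thymidylate synthase, was called (0.49, adjusted p = 0.046), with overlap, and TOP2A (0.01), PCNA (0.14) and BIRC5 (0.04) were not. The median of that list was 0.01.

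GABA genes were higher in the bulb for 3 of the 6 named, with 0 lower and a median of 0.45. GAD1, which makes GABA from glutamate, lay at 12.72, 12.55, 11.28 and 11.67 in olfactory bulb, against 9.10, 9.51, 8.54 and 9.17 in hypothalamus, a difference of 2.97 (SE 0.18, adjusted p = 2.6e-04) or 7.84-fold. GAD2, the second form of that enzyme, differed by less, 0.89 (SE 0.18, adjusted p = 0.019), and the scaffold of inhibitory synapses GPHN by 0.49 (adjusted p = 0.033), with overlap. The receptor subunits GABRA4 (0.41) and GLRB (-0.39) were not called. The transaminase ABAT, at 0.12, was not called either. In both tissues GAD1 was lowest in the Iberian female.

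Of 5 neuronal calcium buffer proteins 1 was higher and 2 were lower. SCGN was higher in the bulb, as given above, whereas VSNL1, visinin-like protein, was lower by 1.34 (SE 0.28, adjusted p = 0.019), with 10.56, 10.08, 11.56 and 11.12 in olfactory bulb, against 12.06, 12.45, 12.03 and 12.15 in hypothalamus. HPCAL1, a hippocalcin relative, was lower by 0.77 (adjusted p = 0.040) and overlapped. Of 13 genes used by most neurons 4 were higher and 1 lower, with a median of 0.15. SNAP25 and SYT1, parts of the machinery of transmitter release, were higher by 0.64 and 0.68 and the synapsin SYN2 by 0.82, with overlap for SYN2. The ubiquitin hydrolase UCHL1, also a mitral cell gene, was lower by 0.86 (adjusted p = 0.013). The mean level of these 13 genes was 10.05 to 10.26 over olfactory bulbs and 9.96 to 10.43 over hypothalami, and the ranges overlapped.

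Of 7 named glutamate genes 1 was called, HOMER2, a scaffold of metabotropic glutamate receptors, which was higher in the bulb by 1.83 (SE 0.16, adjusted p = 7.3e-04). GRIN1 (-0.04), the only receptor subunit among the 7, was not called, so that these genes say little of glutamate receptors. The transporters SLC1A2 (-0.21) and SLC1A3 (-0.10) were not called. CCK, the precursor of cholecystokinin and a transmitter of tufted cells, had 8.76, 8.37, 10.42 and 10.10 in olfactory bulb, against 7.86, 6.96, 7.21 and 8.13 in hypothalamus (1.87, SE 0.33, adjusted p = 0.011), with the Iberian bulbs above the Large White ones. The cadherin CDH13 of mitral cells was not called (-0.27). The muscarinic receptor CHRM1 was higher in the bulb by 2.06 (SE 0.13, adjusted p = 2.7e-04), and the nicotinic subunit CHRNB2 was lower by 0.57 (adjusted p = 0.046).

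Neuropeptide precursors and granins differed in both directions. Of 28 named genes 7 were higher in olfactory bulb and 8 lower, where 6.42% and 14.1% of all named genes were, and the extremes of the list, 6.45 and -7.60, were also those of all named genes. On the side of the hypothalamus PMCH was followed by AVP, the precursor of vasopressin, which holds back water in the kidney. AVP lay at 4.64, 4.91, 4.78 and 4.38 in olfactory bulb, against 5.41, 7.72, 12.56 and 9.54 in hypothalamus, a difference of -4.13 (SE 0.99, adjusted p = 0.032). The bulbs were alike, and the hypothalami were spread widely. Without the Iberian male AVP was not called (-3.79, adjusted p = 0.12). OXT, the precursor of oxytocin, which neighbours AVP in the genome and is made by the same nuclei, varied in the same animals, with 5.54, 5.70, 5.33 and 5.61 in olfactory bulb, against 5.38, 7.39, 10.95 and 6.33 in hypothalamus. Its difference of -1.97 was not called (SE 0.83, adjusted p = 0.16), and the Large White male hypothalamus was no higher than the bulbs.

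HCRT encodes the orexins, which keep animals awake and feeding. It had 6.37, 6.42, 6.02 and 6.24 in olfactory bulb, against 8.06, 8.20, 8.14 and 9.90 in hypothalamus (-2.31, SE 0.31, adjusted p = 0.0038). The Iberian male hypothalamus was highest for both HCRT and PMCH, which neighbouring neurons of the lateral hypothalamus make. PDYN, the precursor of the dynorphins and a peptide of the same orexin neurons, fell by 2.02 in the bulb (SE 0.14, adjusted p = 4.0e-04). TAC3, the precursor of neurokinin B in neurons that drive the release of gonadotropins, had 5.67, 5.92, 5.45 and 5.54 in olfactory bulb, against 8.67, 8.02, 6.10 and 6.86 in hypothalamus (-1.77, adjusted p = 0.015), and the Large White hypothalami were above the Iberian ones. ADCYAP1, the precursor of the peptide PACAP, was lower by 1.65 (adjusted p = 0.022), the granin SCG2 by 1.55 (adjusted p = 0.0016) and PCSK1N, an inhibitor of a prohormone convertase, by 0.73 (adjusted p = 0.0058).

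On the side of the bulb stood, beside NPY, TRH and CCK, NMB, the precursor of neuromedin B. It had 9.33, 8.97, 8.25 and 8.83 in olfactory bulb, against 7.02, 6.31, 5.91 and 7.74 in hypothalamus (2.10, SE 0.24, adjusted p = 0.0021), and the tissues did not overlap. PTHLH, a relative of parathyroid hormone, was higher by 1.09, GALP, the galanin-like peptide, by 1.37 and the granin CHGB by 0.75. GALP was higher in 3 bulbs, between 5.71 and 6.21, but the Iberian female bulb, at 4.25, was barely above the highest hypothalamus. SST, the precursor of somatostatin, had 5.28, 5.55, 9.16 and 7.42 in olfactory bulb, against 7.56, 9.71, 8.69 and 9.47 in hypothalamus, and was not called (-2.0, adjusted p = 0.074). CARTPT, whose peptide reduces feeding, had 6.83, 6.77, 9.45 and 8.11 in olfactory bulb, against 7.14, 7.32, 6.56 and 7.28 in hypothalamus, and was not called either (0.71, adjusted p = 0.41). In both of these genes the Iberian bulbs were above the Large White bulbs. NPW (0.12), PNOC (-0.19), NPPC (0.15), CHGA (-0.21), SCG3 (0.11) and SCG5 (-0.34), further peptides and granins, were not called. POMC (-0.05), AGRP (0.01) and GAL (-0.02), known from the arcuate nucleus, were not called and at most 4.72 on all 8 arrays, and GNRH1, of the neurons that start reproduction, was 4.49 and 4.13 in the Iberian hypothalami and 3.22 or less on the other 6 arrays (-0.83, adjusted p = 0.077).

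**Figure D3:**
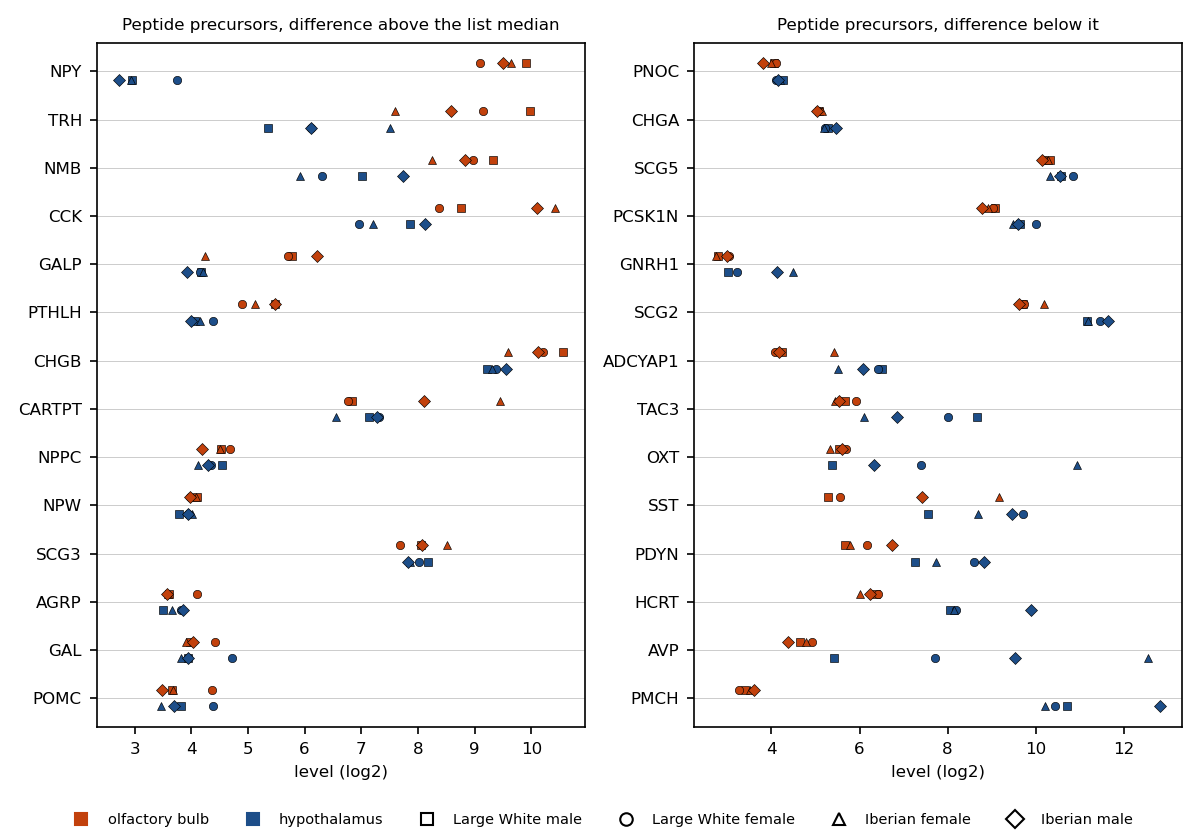
Levels (horizontal axes, log2) of the 28 named peptide precursors and granins, 1 row each, sorted by difference, olfactory bulb in orange above hypothalamus in blue, with a marker shape for each animal. AVP and OXT are spread widely over hypothalami and narrowly over bulbs, and SST and CARTPT are highest among bulbs in the Iberian animals.

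Of 30 receptors of peptides and hormones 2 were higher and 4 lower, shares close to the 6.42% and 14.1% of all named genes. CALCR, the calcitonin receptor, which also forms the receptor of amylin, was 9.43, 9.80, 10.45 and 10.64 in olfactory bulb, against 11.60, 11.97, 11.80 and 11.91 in hypothalamus (-1.74, SE 0.19, adjusted p = 0.0016), and its other probe gave -1.92. MC4R, the melanocortin receptor that limits feeding, was lower in the bulb by 1.54 (adjusted p = 0.0075), although it was dim in both tissues. The opioid receptor OPRM1 was lower by 1.03 (adjusted p = 0.013), with overlap. EDNRA, an endothelin receptor, was higher by 0.94 (adjusted p = 0.0033). Of 10 peptide processing enzymes 3 were lower and 0 higher, the carboxypeptidase CPM by 0.97, PAM, which amidates peptide ends, by 0.67, and PCSK1N as above. For PAM the tissues overlapped, and the difference was 0.01 in the Iberian female (adjusted p = 0.046 in limma). Of 18 monoamine genes 3 were lower and 0 higher. These were QDPR, which restores the cofactor of tyrosine hydroxylase (-1.33, adjusted p = 0.0048), and the monoamine oxidases MAOB (-1.03) and MAOA (-0.80).

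The calcitonin peptides were looked at as a group after their values had been seen. Of 10 named genes of the family and its receptors 8 were lower in olfactory bulb and 0 higher, with a median of -1.18. IAPP, or amylin, which limits meals, had 5.52, 4.96, 6.57 and 4.31 in olfactory bulb, against 8.18, 8.48, 8.43 and 6.62 in hypothalamus (-2.59, SE 0.24, adjusted p = 9.6e-04). CALCB, the precursor of calcitonin gene-related peptide, was lower by 1.41. CRSP-2 and CRSP3, named as calcitonin receptor-stimulating peptides, were lower by 1.60 and 1.42. These peptide genes are close relatives, and the share of signal that each probe takes from the others was not tested. RAMP1, RAMP2 and RAMP3, the membrane partners that turn CALCR into an amylin receptor, were lower by 0.94, 0.50 and 0.49. CALCRL (-0.01), the related receptor, was not called.

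Hypothalamic transcription factors gave 3 of 10 named genes lower in olfactory bulb and 0 higher, with a median of -0.45, where 14.1% of all named genes were lower. FOXA1, a forkhead factor, was 2.76, 3.07, 2.83 and 2.71 in olfactory bulb, against 4.32, 3.84, 4.51 and 5.06 in hypothalamus (-1.59, SE 0.23, adjusted p = 0.0050), and PEG3, an imprinted zinc finger gene, and LHX1, of the suprachiasmatic nucleus, were lower by 0.95 and 0.94. The LHX1 probe was dim, with means of 3.60 in olfactory bulb, 4.54 in hypothalamus and 4.55 in blood. ARNT2 (-0.51), LHX9 (-0.45), TCF7L2 (-0.44), FOXA2 (-0.13), NR4A2 (0.32), NR0B1 (0.05) and NR5A1 (-0.02) were not called. Among the probes named only by the study, HDC, which makes histamine in the tuberomamillary nucleus, had 4.07, 3.95, 3.83 and 3.85 in olfactory bulb, against 8.58, 7.40, 5.66 and 8.98 in hypothalamus. IRS4, an insulin receptor substrate of the hypothalamus, had a difference of -5.39. The hypothalamic factors IRX3 (0.30), LHX6 (0.04), LMX1A (0.04) and SIX6 (-0.20) overlapped. The Iberian female hypothalamus was the lowest of the 4 for HDC.

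Several of the genes lowest in the bulb relative to the hypothalamus belong to glia or to handling of water and metabolites. AGT, angiotensinogen, which brain astrocytes make, lay at 8.32, 9.02, 8.07 and 8.82 in olfactory bulb, against 11.54, 11.34, 11.51 and 11.07 in hypothalamus (-2.81, SE 0.22, adjusted p = 4.8e-04). ETNPPL, a phospholyase of astrocytes that breaks down phosphoethanolamine, was 4.05, 5.02, 5.95 and 5.23 in olfactory bulb, against 8.10, 8.26, 8.43 and 8.06 in hypothalamus (-3.15, adjusted p = 4.5e-04). The water and glycerol channel AQP3 was lower by 3.08, the mitochondrial carrier SLC25A48 by 2.97, IGSF1, loss of which causes central hypothyroidism in humans, by 2.55 and the secreted protein FIBIN by 2.44. PTGFR, the receptor of prostaglandin F, was lower by 2.26, the actin-severing protein SCIN by 2.16, CD38, which in the mouse is needed to release oxytocin, by 2.10 and VWA5A by 2.06. PTGFR was higher in the Iberian female than in the other animals in both tissues.

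Microglia and macrophage genes were lower in the bulb in 13 of 17, and 1 was higher, where 14.1% of all named genes were lower and 6.42% higher. Their median was -1.04, and between -1.18 and -0.89 in the single animals. AIF1, a cytoskeletal protein of microglia, had 7.27, 7.32, 7.63 and 8.01 in olfactory bulb, against 9.01, 9.11, 9.04 and 9.55 in hypothalamus (-1.62, SE 0.11, adjusted p = 3.0e-04). P2RY12, the ADP receptor of resting microglia, was lower by 1.58, the complement genes C1QA and C1QC by 1.49 and 1.65, the signalling adaptor TYROBP by 1.44 and the lysosomal protein LAPTM5 by 1.58. CD163 (-0.09) and MRC1 (-0.32), of macrophages at the vessels and membranes of the brain, were not called. SPP1, osteopontin, which microglia but also neurons of the bulb can make, was the gene that went the other way (0.72, adjusted p = 0.017). The mean level of the 17 genes was 6.03, 6.02, 6.23 and 6.73 in olfactory bulb, against 6.76, 6.90, 7.13 and 7.76 in hypothalamus, and in both tissues the Iberian male was highest.

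Myelin and oligodendrocyte genes were lower in 12 of 22 and higher in 1, with a median of -0.61, where 14.1% of all named genes were lower and 6.42% higher. OPALIN, a membrane protein of oligodendrocytes, had 8.0, 8.73, 9.79 and 8.76 in olfactory bulb, against 11.13, 10.64, 10.77 and 10.59 in hypothalamus (-1.96, SE 0.30, adjusted p = 0.0064). ERMN was lower by 1.79, transferrin (TF) by 1.59, PLLP by 1.5, the oligodendrocyte glycoprotein OMG by 1.45, the lipid hydroxylase FA2H by 1.38, MAG by 1.24 and the lineage factors OLIG1 and OLIG2 by 1.28 and 0.81. For OLIG1 the tissues overlapped. Also called lower were TSPAN2 (-0.85), ENPP6 (-0.67) and CNP (-0.55). The CNP probe had means of 4.79 in olfactory bulb and 5.33 in hypothalamus, below blood (5.74), so that it says little of myelin. MBP (-0.21) and MOBP (-0.48), which are main myelin products and lay above 10 on every array, were not called, nor were CLDN11 (-0.51), CD9 (-0.35), BCAS1 (-0.29), MAL (-0.23), ASPA (-0.12), SOX10 (0.08) and GPM6B (-0.03). ASPA and SOX10 were dim in both tissues, at 4.96 or less on all 8 arrays. GJB1, a connexin of oligodendrocytes, was higher in the bulb (1.23, adjusted p = 0.014), with overlap. The median difference of the list was -1.02, -0.77, -0.19 and -0.66 in the 4 animals, and the bulb of the Iberian female carried the most myelin signal, with a mean level of 8.30 against 7.48 to 7.85 in the other bulbs.

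Astrocyte genes were mixed, with 2 higher, 8 lower and 12 not called of 22. GFAP, the intermediate filament of astrocytes, was 11.80, 12.02, 11.76 and 11.77 in olfactory bulb, against 13.19, 12.79, 13.19 and 12.34 in hypothalamus (-1.04, adjusted p = 0.0075). Aldolase C (ALDOC) was lower by 1.0, NDRG2 by 0.87 and the gap junction protein GJA1 by 0.60. FABP7, a fatty acid binding protein of radial glia and of ensheathing glia, went the other way, with 11.57, 11.23, 11.18 and 11.46 in olfactory bulb, against 9.32, 9.50, 9.74 and 9.59 in hypothalamus (1.82, SE 0.14, adjusted p = 4.8e-04), and so did APOE by 0.41. Of 7 genes of olfactory sensory neurons and ensheathing glia NPY and FABP7 were the 2 higher ones, and the quinone reductase NQO1 was lower by 0.66.

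**Figure D4:**
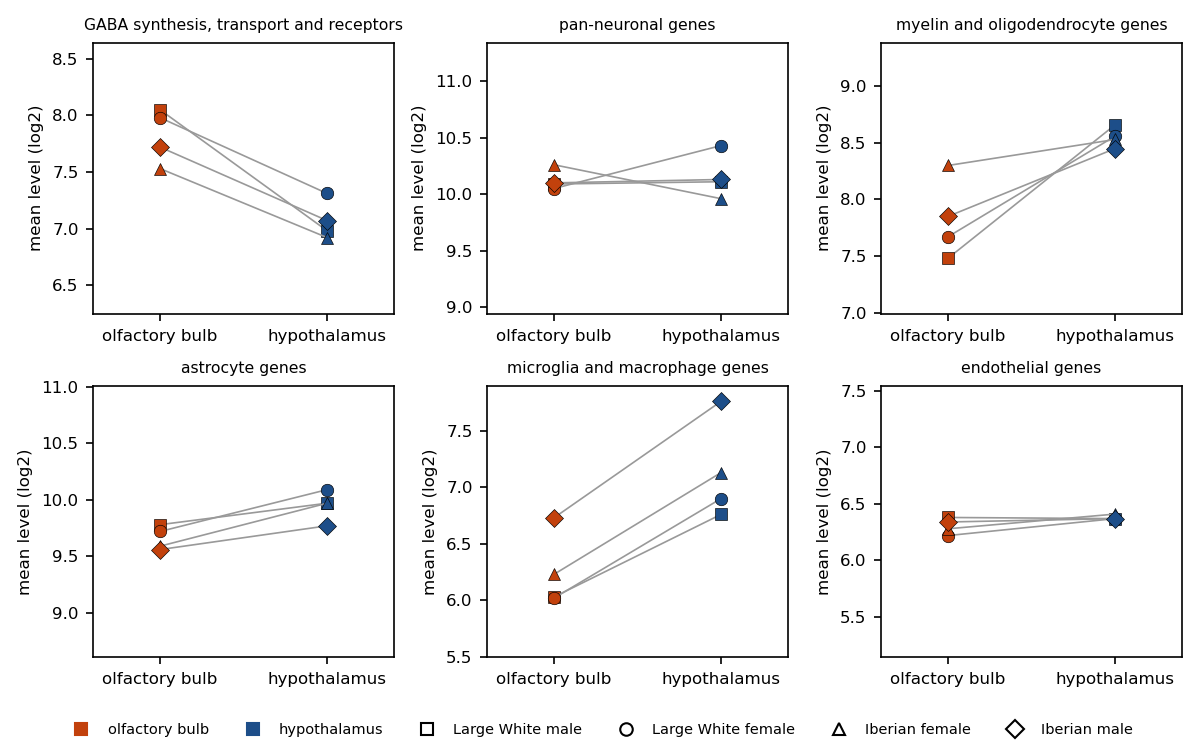
Mean level (vertical axes, log2, each spanning the same number of units) over the named genes of 6 lists, olfactory bulb at the left and hypothalamus at the right, with a line for each animal. Microglia and macrophage genes lie between 6.02 and 6.73 in olfactory bulb and between 6.76 and 7.76 in hypothalamus, while endothelial genes keep to 6.22 to 6.38 and 6.37 to 6.41.

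Markers of other cells that the samples could hold differed less. Endothelial genes had 1 of 16 lower and 0 higher (median -0.06), with ENG at -0.51. Genes of mural cells, fibroblasts and meninges had 1 of 22 lower and 0 higher (median -0.01), the smooth muscle gene CNN1 at -1.17. FOLR1, the folate receptor, was the only 1 of 7 choroid plexus genes called (-1.38), and HBB of 5 red cell genes was higher by 0.40. The mean of HBB was 6.69 in blood, below olfactory bulb (8.58) and hypothalamus (8.18), and among the 16 tissues FOLR1 was highest in blood (9.45). Neither probe can thus be read here as a measure of red cells or choroid plexus. Of 12 lymphocyte genes CD2 was lower by 1.16, with 7.34 in the Iberian male hypothalamus and 4.74 or less in the others, and the mean of that list was also highest there, at 5.03. Of 5 ependymal genes DIO2, a deiodinase that activates thyroid hormone, was higher by 0.47. EPCAM, an epithelial junction protein, was higher by 0.61, with overlap, beside CDH1, out of 12 epithelial genes with 0 lower. None of 9 pituitary genes passed the adjusted threshold in limma, yet the Large White female bulb carried more of their signal than the other bulbs (CGA 5.99 against 3.03 to 3.32 there, and a list mean of 5.05 against 3.93 to 4.10). Whether other cells or tissue in single samples bear on the differences above was not tested.

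Immediate early genes, a group also chosen after values were seen, are induced within minutes of activity. Of 22 named, 9 were higher in olfactory bulb and 1 lower, with a median of 0.34. EGR1 had 9.71, 9.14, 9.47 and 9.20 in olfactory bulb, against 7.22, 7.44, 6.91 and 6.94 in hypothalamus (2.26, adjusted p = 3.4e-04), and its other probes gave 2.14 and 2.74. FOS had 9.31, 8.49, 8.57 and 8.32 in olfactory bulb, against 7.03, 7.31, 6.98 and 7.27 in hypothalamus (1.52, adjusted p = 0.0035). CYR61 was higher by 1.12, IER2 by 0.85, FOSL2 by 0.75, PER1 by 0.72 and ATF3 by 0.58. SGK1, a kinase induced by glucocorticoids, was lower by 0.61. JUN (-0.46), DUSP1 (0.07), IER5 (0.15) and KLF4 (-0.13), which respond to many of the same stimuli, were not called. Tissues were collected some minutes after death, and the time for each tissue is not given. Its part in these levels was not tested.

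Signals that pattern or maintain the bulb were higher there for some members only. SFRP1, a secreted Wnt antagonist, had 9.82, 9.65, 8.69 and 9.34 in olfactory bulb, against 7.34, 7.95, 6.26 and 6.79 in hypothalamus (2.29, SE 0.16, adjusted p = 3.4e-04), and the Wnt effector LEF1 was higher by 0.66, while the receptor FZD5 (-0.77) and the secreted protein DKK3 (-0.63) were lower. Of 14 Wnt genes 3 were higher and 2 lower, where 6.42% and 14.1% of all named genes were, so that the lower share was close to that of all genes. In a list of growth factor, BMP and Notch genes gathered after values were seen, 5 of 19 were higher and 6 lower. The higher ones included BMP7 (2.44), EGFR (1.78), the heparin-binding factor PTN (1.75) and the Notch target HES1 (1.43), and the lower ones the matrix protein TNC (-1.76), GAS6 (-1.07) and VCAM1 (-0.97). BMP7 lay between 7.04 and 7.63 in olfactory bulb and between 4.36 and 5.27 in hypothalamus.

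Of the IGF axis 2 of 12 were higher and 0 lower. IGFBP5, which binds insulin-like growth factors, had 7.94, 7.99, 7.92 and 8.01 in olfactory bulb, against 5.94, 6.34, 6.03 and 6.11 in hypothalamus (1.86, SE 0.10, adjusted p = 1.7e-04), and IGF1R was higher by 0.60. Of 8 axon guidance genes the ligand EFNB2 (1.45) and the semaphorin receptor PLXNA2 (1.14) were higher and the netrin receptor UNC5B was lower (-0.59). Of 13 cadherins CDH1 was higher and CDH11 was lower by 0.75. Of 9 retinoic acid genes ALDH1A1, which makes retinoic acid, was lower by 1.92 (adjusted p = 0.013), with 10.08 in the Iberian male hypothalamus and 8.45 or less in the other three.

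Among ion channels more of the called genes were higher in the bulb than lower. Of 21 potassium channel genes 5 were higher, 1 was lower and 15 were not called, with a median of 0.12. Of all named genes 6.42% were higher and 14.1% lower. KCNF1, a silent subunit that modifies other channels, had 7.01, 6.64, 5.65 and 6.45 in olfactory bulb, against 4.17, 4.05, 3.78 and 4.20 in hypothalamus (2.39, SE 0.16, adjusted p = 3.4e-04). Its partner KCNB2 was higher by 1.10 and the accessory subunit KCNIP2 by 1.08, and KCNA6 was lower by 0.84, with overlap for KCNIP2 and KCNA6. Of 7 sodium, calcium and cation channel genes 4 were higher and 0 lower, namely CACNB3 (1.3), CACNB4 (0.91) and CACNA2D1 (0.71), accessory subunits of calcium channels, and CACNG3 (1.06), a relative of these that accompanies glutamate receptors. For CACNB4 and CACNA2D1 the tissues overlapped.

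Imprinted genes were lower in the bulb in 6 of 18, with 0 higher, 12 not called and a median of -0.17, where 14.1% of all named genes were lower. PEG10, a gene derived from a retrotransposon, had 9.19, 9.24, 9.19 and 9.33 in olfactory bulb, against 10.47, 10.73, 10.44 and 10.93 in hypothalamus (-1.40, SE 0.11, adjusted p = 4.5e-04). DIRAS3 was lower by 1.37, NAP1L5 by 1.04, PHLDA2 by 0.99, PEG3 by 0.95 and GNAS by 0.82, whereas NDN (-0.32), SNRPN (-0.06) and UBE3A (0.02), of the Prader-Willi and Angelman region, were not called. The probes of PHLDA2 and GNAS read low levels. PHLDA2 had means of 4.48 in olfactory bulb and 5.47 in hypothalamus, and GNAS lay between 4.36 and 5.46 over hypothalami.

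**Figure D5:**
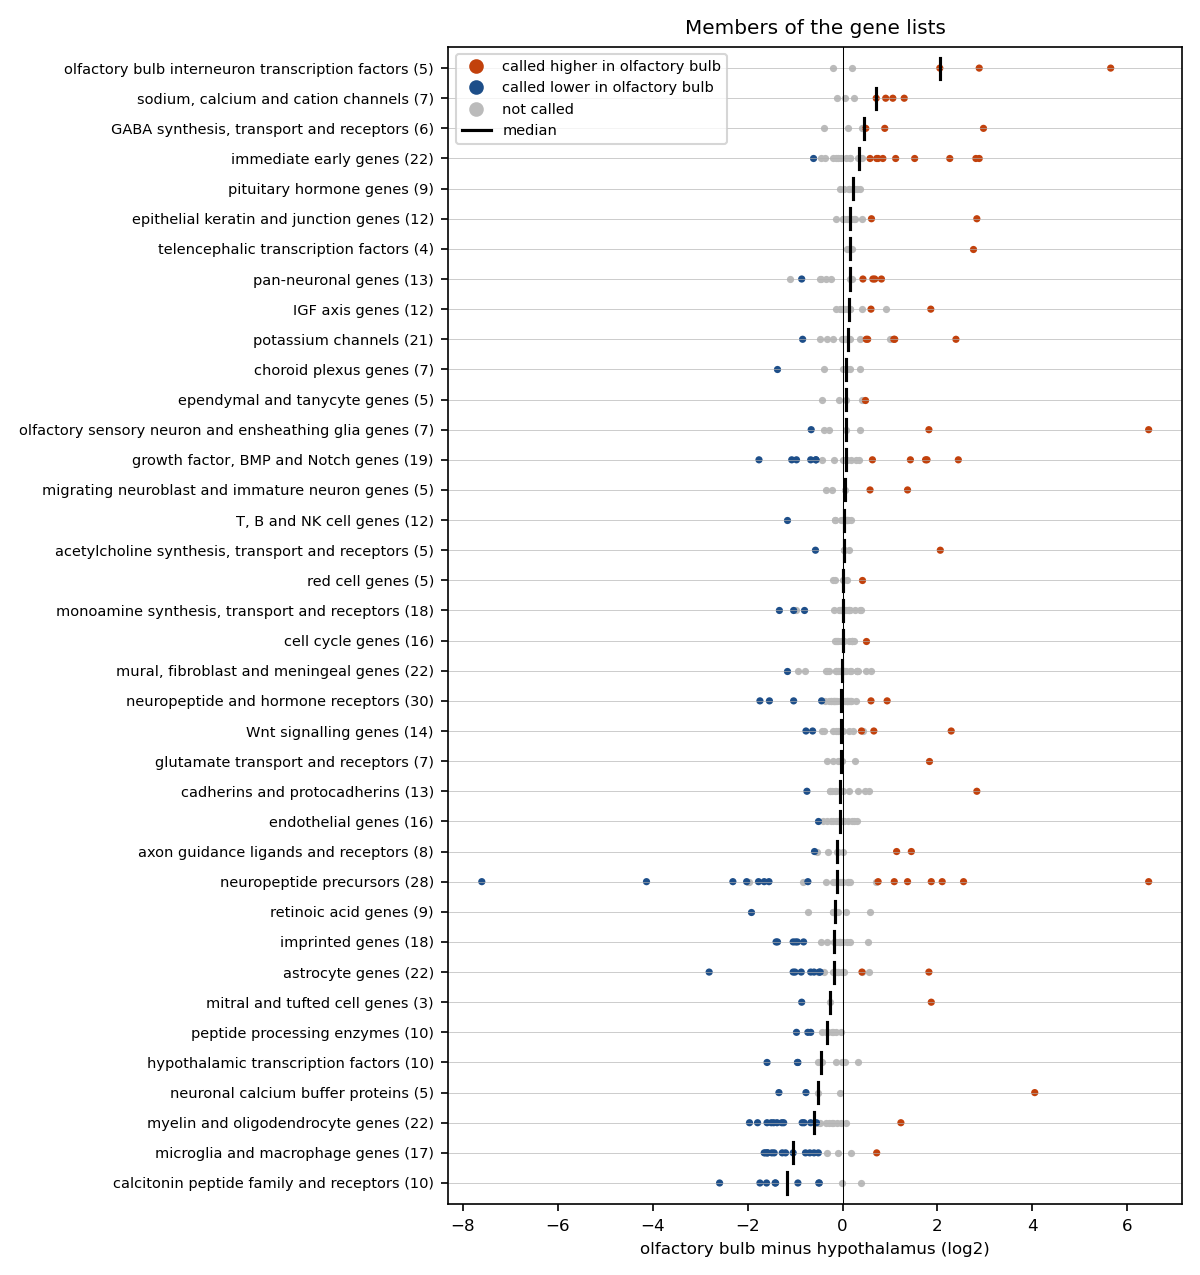
Differences between olfactory bulb and hypothalamus (horizontal axis, log2) of the members of each gene list with at least 3 named genes, 1 row for each list with the number of genes in brackets, sorted by the median (black bar). Orange points were called higher in olfactory bulb, blue points lower, and grey points were not called. Medians run from 2.05 for factors of bulb interneurons to -1.18 for calcitonin peptides and receptors.

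The difference between the tissues was then compared between the breeds, as Large White minus Iberian. In limma on the 4 paired differences 2 probes (0.00836%) passed, and 1783 had an unadjusted p under 0.05. Of the passing probes 1 has no gene name, and the other measures SLC5A5, the sodium and iodide symporter, which is known from thyroid and choroid plexus. SLC5A5 had 6.01 and 5.49 in the Large White bulbs and 3.91 and 4.14 in the Iberian bulbs, against 4.31 and 3.66 in the Large White hypothalami and 5.25 and 5.68 in the Iberian ones. Bulb minus hypothalamus was thus 1.69 and 1.84 in Large White and -1.34 and -1.54 in Iberian animals, a difference between the breeds of 3.20 (SE 0.20, adjusted p = 0.023). In limma without the animal as a block 0 probes passed (1719 at an unadjusted p under 0.05), so that the call ended. Among probes above the median level, which leave out SLC5A5 as too dim, 0 passed as well (1029 at an unadjusted p under 0.05). MGP, a matrix protein of vessels and fibroblasts, had the same arrangement, with a difference between the breeds of 2.17 that was not called (adjusted p = 0.22). The mean of the mural, fibroblast and meningeal list moved with them, at 7.20 and 6.83 in the Large White bulbs, 6.48 and 6.52 in the Iberian bulbs, 6.75 and 6.45 in the Large White hypothalami and 6.94 and 7.18 in the Iberian hypothalami, and its part in the result was not tested. With 2 animals against 2 an exact permutation test of a single gene cannot go below p = 0.333, and with 1 male and 1 female of each breed these differences belong to the animals at hand.

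Between the sexes, as male minus female, 0 probes passed in limma (0%), and 551 had an unadjusted p under 0.05. The named gene with the smallest p was GEM, a small GTPase, at 1.25 (adjusted p = 1.0).

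The animals differed in how far their tissues were apart, and the Iberian female had the closest pair. Her bulb was the lowest of the 4 for TRH, MEIS2, TSHZ1, GAD1, DLX5 and KCNF1 and the highest for CCK, SST, CARTPT and OPALIN. Her hypothalamus was the highest of the 4 for TRH, MEIS2, TSHZ1, TBR1, AVP, OXT and GNRH1. It was the lowest of the 4 for GAD1 (8.54), DLX5 (3.59) and KCNF1 (3.78). DLX5 and KCNF1 were dim in every hypothalamus, at 4.20 or less. Without her pair 1283 probes were higher in olfactory bulb and 1685 lower. Whether the tissue taken differed was not tested.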

How the data were processed

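Total RNA of each sample was hybridised to an Affymetrix porcine array. The authors read the chips in GCOS (version not given in the sources used here) and applied RMA through libaffy to the whole set of 64. The deposited values are log2 signals between 1.78 and 14.47, and 0 columns were left without a sample. With 4 arrays a tissue, their number sets the precision. Of 24123 probe sets 188 controls were left out. Symbols came from the platform annotation, which gave 10110 probes 1 symbol, 157 several and 13668 none, and 9973 were found by Entrez number in the RefSeq table of Sscrofa11.1, which changed 0 symbols. Leaving out LOC numbers gave 9815 named probes. Names from the study's own tables were used only where stated, and some genes so named are not reported here. No sequences or coordinates were used.

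The paired fit was limma 3.58.1 in R 4.3.3 (lmFit, eBayes) with tissue and animal, on the 8 arrays, two-sided, adjusted after Benjamini and Hochberg. The design assigns both tissues to an animal, and deviations from the tissue means correlated at 0.164 to 0.555 within animals, against -0.323 to 0.231 between different animals. A permutation test of 4 pairs cannot go below p = 0.125, so that the calls rest on the spread that limma shares between probes. Breeds and sexes were compared on the 4 paired differences. The steps were tested on simulated data. Figures and counts used Python 3.11.15 with numpy 2.4.6, pandas 2.3.3 and matplotlib 3.10.9.

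The genes named were TRH, PMCH and DLX5, the 15 with the largest difference in each direction among called genes that moved the same way in 4 animals, the 4 members of each of 36 lists called with the largest difference, every named member of the lists of transcription factors, peptides, mitral cells and myelin, and for breed and sex up to 6 called with the largest difference (SLC5A5 alone qualified), each by its brightest probe. Members named beside these, as examples of a list or as uncalled members, and 3 further lists were picked with their values in view. The comparison and all lists were chosen with earlier results of these data known. Lists have no test and are set beside all named genes. The alternatives were all 64 arrays, no block, each animal left out, other normalizations, scale, filter, variance prior and thresholds, and the mean of a gene's probes. Columns of the study's tables that hold its own comparisons were not used.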

Additional observations from a re-analysis of the deposited data

Results flagged for a closer look

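Among the 202 genes named, 26 of 404 groups of 4 arrays held 1 array far from the other three by Dixon's criterion, which chance alone meets in about 1 of 20 groups. The Iberian female stood apart in both tissues for PTGFR, with 5.17 in olfactory bulb and 7.98 in hypothalamus. Her bulb was also apart for ADCYAP1 (5.42), ALDH1A1 (7.17) and TSHZ1 (9.02, the lowest), and her hypothalamus for OLIG1 (8.65, the lowest) and HBB (8.33).

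The Large White female bulb was highest for CGA (5.99), AGRP (4.10), GFAP (12.02), OPRM1 (4.01) and PHLDA2 (4.88). In hypothalamus her array was highest for GAL (4.72) and KCNIP2 (7.86) and lowest for ARNT2 (9.83) and EFNB2 (5.49). CGA encodes the shared subunit of pituitary glycoprotein hormones, and the mean of the pituitary genes was highest in the same bulb, as given above.

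The Iberian male hypothalamus was highest for the orexin precursor HCRT (9.90), the complement gene C1QA (9.61) and the T cell gene CD2 (7.34), and lowest for IAPP (6.62), GALP (3.92), MAL (6.38) and MAOA (9.22). The Large White male was highest among bulbs for DIRAS3 (11.03) and lowest among hypothalami for CRSP3 (4.76) and GNAS (4.36).

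The difference between the tissues had opposite directions in the breeds, in both animals of each, for 9 of the 202 genes named. Only these genes were searched, and the share over all named genes is not given. ENPP1, for example, had the pattern too (0.94, 1.11, -0.37 and -0.77). The difference between the breeds, Large White minus Iberian, passed in limma for SLC5A5 (3.20, adjusted p = 0.023). It did not pass for MGP (2.17, adjusted p = 0.22), CARTPT (-2.29, adjusted p = 0.52), SCG3 (-0.67), ASPA (-0.47), NR5A1 (0.47), AGRP (0.37), UBE3A (-0.37) and SNRPN (-0.27). Among the same 202 genes, opposite directions in the sexes were seen for NR2F2 (0.69), KLF4 (0.73), NPPC (-0.42) and BIRC5 (-0.32), as male minus female, and did not pass in limma.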

How the results depend on the processing

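The paired fit called 3858 probes, 1695 higher and 2163 lower in olfactory bulb. Without the animal as a block 3465 were called, 1592 higher and 1873 lower, and 13 of the 145 called genes named here lost their call without the pairing, AVP among them (adjusted p = 0.051). With the natural logarithm of the log2 values 2217 were called (1074 higher, 1143 lower). An adjusted p under 0.01 left 1546 (768 higher, 778 lower), and a difference of at least 1 left 968 (544 higher, 424 lower). Leaving out 1 animal gave between 1750 and 3226 calls, with 825 to 1619 higher and 910 to 1685 lower. The Large White male (1750 without him) and the Iberian male (1811 without him) moved the count by over 1.5 times. By breed 0 probes passed among those above the median level, and 0 without the block, against 2 in the paired differences, with 1029 and 1719 at an unadjusted p under 0.05.

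No named gene changed direction while called, of 202. Of the 145 called, 83 kept the call under every alternative other than the thresholds, 44, 20, 10 and 37 lost it without the Large White male, the Large White female, the Iberian female and the Iberian male, and 39 lost it on the natural logarithm. Of 38 list medians 15 moved by more than the spread between animals under some setting. A gene that was not called with 4 pairs is not shown to be equal in the tissues.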
